A study of Mus musculus with 18 samples.

Results

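MLT1 elements are an ancient branch of the mammalian apparent LTR retrotransposons (MaLRs), a group of repeats related to ERVL endogenous retroviruses. They were chosen here by class and name: every row of the deposited repeat tables of class LTR/ERVL-MaLR whose name begins with MLT1 or MST. The tables list 1365 repeat subfamilies, of which 60 met the rule, and all 60 are MLT1 rows, since 0 names begin with MST. Of these 60, 30 are internal rows, with names ending in -int, and 30 are rows of long terminal repeats (LTRs). For 29 subfamilies both kinds of row are listed; MLT1-int has no LTR row of its own name and MLT1M has no internal row. The letter after MLT1, from A to O, names a group of subfamilies.

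An MaLR copy is built like a provirus, with an internal stretch between a pair of LTRs, but its internal stretch is not known to encode the retroviral proteins, so these elements are thought to have been copied by the machinery of other elements. LTRs hold the promoter and the polyadenylation signal, and recombination between both LTRs of a copy removes the internal stretch and leaves a solitary LTR, the commonest form of old elements in a genome. MLT1 copies were inserted before the placental mammals diverged, are shared by mouse and human at many sites, and are no longer able to move. MST elements are best known from primate genomes, and the ORR1 and MT elements are the younger MaLR branches of rodents.

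The study inhibited HSP90, a chaperone for many signalling proteins, and measured poly(A) RNA in 18 libraries in 6 groups of 3. Embryonic stem cells (ESCs) of the 129S1/CASTEiJ background, grown in 2i medium, were given 100 nM of the inhibitor NVP-AUY922 for 24 h, or left untreated. Bone-marrow-derived macrophages of the BALBC/C57BL6 background, derived with M-CSF, were given 500 nM for 24 h, or left untreated. Neuronal progenitor cells (NPCs) of the 129S1/CASTEiJ background, grown with EGF and FGF, were given 50 nM for 24 h, or left untreated. Cell type, dose and, for macrophages, strain therefore change together. The tables hold repeats and no genes, so the cell types were not checked against marker genes here. Separate cultures or animals are not stated for the replicates, and the p-values therefore measure only how much these libraries vary, which may be technical variation.

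Each cell type has its own deposited table, in which the authors compared the 3 treated and the 3 untreated libraries. A row sums the reads of all genomic copies of a subfamily, and no value per library is given. The base mean is the mean of the normalised read count over the 6 libraries. It depends on the number and length of the copies, so it is given as the depth behind a value and not as a level per copy. The log2 fold change is the authors' contrast between the groups, and the error after ± is its standard error (SE). The numerator of the contrast is not named in any table, and it need not be the same group in all of them, so a row is placed on the positive or the negative side and it is not said which side means more RNA in treated cells. A row is called where the adjusted p deposited by the authors is under 0.05. In RNA of whole cultures, fewer cells of a type and less RNA per cell cannot be told apart, and reads of gene transcripts that hold an MLT1 copy can enter a row.

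MLT1 RNA made up a small part of the repeat reads, and nearly all of it was counted in LTR rows. The 60 rows held 0.566% of the summed base mean of the authors' deposited table for ESCs, 1.09% of that for macrophages and 1.05% of that for NPCs. The 30 internal rows alone held 0.0238%, 0.0323% and 0.0627%, in the same order. By comparison, the 49 ORR1 and MT rows held 6.20% in ESCs, 8.42% in macrophages and 7.89% in NPCs. Normalised reads per row were thus few for internal rows, with a median base mean of 10.2 in ESCs, 3.02 in macrophages and 4.30 in NPCs over the 30 internal rows, against 383, 333 and 436 over the 30 LTR rows. Within each subfamily with both kinds of row, the internal row had the lower base mean in every table where both were tested.

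The MLT1 rows without an adjusted p were those with the fewest reads. In ESCs 48 of the 60 rows carried an adjusted p, 18 of them internal and 30 LTR, and the other 12, all internal, had a p only. In macrophages 53 were tested, 23 internal and 30 LTR, and 7 internal rows had no reads. In NPCs 49 were tested, 19 internal and 30 LTR, while 6 internal rows had a p only and 5 had no reads. Every LTR row was thus tested in all 3 tables, and 7 internal rows were tested in none. MLT1K-int, MLT1L-int, MLT1N2-int and MLT1O-int had a base mean of 0 in both macrophages and NPCs. In the authors' deposited table for ESCs, MLT1E-int and MLT1O-int shared a base mean of 0.171 and a log2 fold change of -0.04, and MLT1E1-int and MLT1K-int shared the doubled base mean of 0.343 and a log2 fold change of -0.10. Among MLT1 rows of the ESC table the median SE was 0.12 under a base mean of 1, 0.32 from 1 to 10 and 0.13 at 50 or more. MLT1E-int and MLT1O-int each had an SE of 0.11 there, on 1.03 normalised reads over the 6 libraries. A small SE in such rows is therefore not read as precision. No label or header states whether the authors' fit drew log2 fold changes of rows with few reads towards 0. The sizes and SE of such rows, and differences computed from them, are therefore given as deposited and may be understated.

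**Figure D1:**
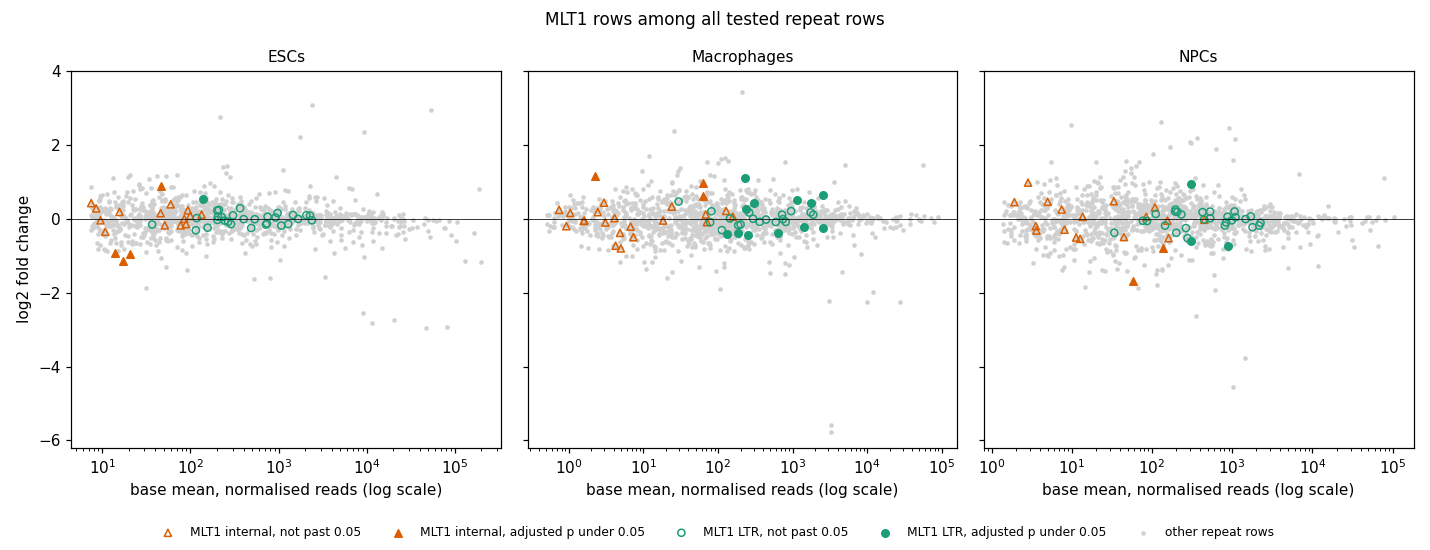
Log2 fold change (vertical axis) against base mean in normalised reads (horizontal axis, log scale) for every tested repeat row in ESCs, macrophages and NPCs. Triangles are MLT1 internal rows, circles MLT1 LTR rows and grey dots the other repeats; filled symbols have an adjusted p under 0.05. The MLT1 rows lie between -1.69 and 1.16, and LTR rows sit to the right of most internal rows.

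In ESCs the rows that passed the test were mostly internal. Of 48 tested rows 5 passed (10.4%), 2 on the positive and 3 on the negative side, against 22.2% of all 1132 tested repeat rows, with 10.2% positive and 12.0% negative. Of the 18 internal rows 4 passed (22.2%), 1 positive and 3 negative, and of the 30 LTR rows 1 passed (3.33%). Over all LTR elements, MLT1 included, 40.0% of tested internal rows and 27.6% of tested LTR rows passed. Among all repeat rows at or above a base mean of 50, a depth that 29 of the 30 LTR rows reached, 26.0% of those tested passed by the authors' adjusted p. The median SE was 0.25 for the 18 internal rows and 0.11 for the 30 LTR rows, so the LTR rows were the more precisely measured. The median log2 fold change was 0.03 for internal and -0.01 for LTR rows, against 0.0019 for all tested rows. Their median absolute log2 fold change was 0.20 for internal and 0.09 for LTR rows, against 0.18 for all tested rows.

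MLT1G-int had the most negative ESC value, at -1.14 ± 0.32 per the authors' deposited table (2.20-fold, adjusted p 0.00297). It rested on a base mean of 17.0, or 102 normalised reads over the 6 libraries. MLT1F1-int followed at -0.95 ± 0.31 with a base mean of 20.6 per the authors' deposited table (adjusted p 0.0123). The authors' deposited table placed MLT1E2-int at -0.93 ± 0.33 with a base mean of 13.9 (adjusted p 0.0238). These are internal parts of lettered groups E to G, and their LTR rows did not pass. The other tested internal rows of these groups, MLT1F-int, MLT1F2-int and MLT1G3-int, lay at 0.11, 0.22 and -0.36 and did not pass either. On the positive side, MLT1C-int lay at 0.89 ± 0.25 per the authors' deposited table, at a base mean of 45.9 (1.85-fold, adjusted p 0.00378).

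The matching LTR rows lay closer to 0. For MLT1G the internal row was at -1.14, against 0.22 ± 0.14 for the LTR row per the authors' deposited table for ESCs. For MLT1C the internal row was at 0.89, against -0.19 ± 0.08 for the LTR row there (adjusted p 0.0790). For both subfamilies the internal and the LTR row thus lay on opposite sides. MLT1F1 and MLT1E2 had LTR rows on the same side as the internal row, at -0.25 ± 0.10 and -0.16 ± 0.10 per the authors' deposited table, and neither passed. The LTR row that did pass in ESCs was MLT1N2, at 0.53 ± 0.16 and a base mean of 138 per the authors' deposited table (1.44-fold, adjusted p 0.0080); its internal row, at a base mean of 4.76, was not tested.

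The most deeply counted MLT1 rows in ESCs did not pass. MLT1A0, MLT1B and MLT1D, the LTR rows with the highest base means (2388, 2271 and 2061), lay at -0.04 ± 0.08, 0.08 ± 0.08 and 0.09 ± 0.08 per the authors' deposited table. The internal rows with the highest base means, MLT1F-int, MLT1-int and MLT1F2-int (134, 99.4 and 93.5), lay at 0.11 ± 0.17, 0.08 ± 0.18 and 0.22 ± 0.19 there. For MLT1A0 the 95% interval of the log2 fold change, from the deposited SE, was -0.19 to 0.10. With a base mean of at least 50 required and p-values adjusted again, 1 of 37 MLT1 rows passed in ESCs, MLT1N2, since all 4 called internal rows lie under that depth.

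In macrophages most called rows were LTR rows, on both sides of the contrast. Of 53 tested rows 15 passed (28.3%), 9 positive and 6 negative, against 25.8% of all 1255 tested repeat rows, with 13.3% positive and 12.5% negative. Of the 23 internal rows 3 passed, all positive, and of the 30 LTR rows 12 passed (40.0%), 6 positive and 6 negative. By comparison, 41.6% of tested internal rows and 30.5% of tested LTR rows passed over all LTR elements, MLT1 included. The MLT1 internal rows held few reads, with a median base mean of 3.02 over all 30, against 333 over the 30 LTR rows. Whether depth has a part in the lean to LTR rows was not tested. Among all repeat rows at or above a base mean of 50, which 29 of the 30 LTR rows reached here too, 36.3% passed, so the share of LTR rows called is near that of rows of like depth. The median log2 fold change was 0.01 for internal and -0.01 for LTR rows, against -0.01 for all tested rows.

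The LTR row MLT1E had the largest log2 fold change of the 30 MLT1 LTR rows in the 3 tables, at 1.09 ± 0.15 per the authors' deposited table for macrophages (2.13-fold, base mean 232, adjusted p 5.16e-12). MLT1F2, the LTR row with the highest base mean there (2554), lay at 0.64 ± 0.09 per the authors' deposited table (1.56-fold, adjusted p 1.36e-11). MLT1K lay at 0.49 ± 0.06 per the authors' deposited table, at a base mean of 1136 (adjusted p 9.07e-15). Of these 3 positive rows, MLT1E lay the farthest out, with the fewest reads and the widest SE. MLT1A1 lay at 0.44 ± 0.06 and MLT1L at 0.41 ± 0.10 per the authors' deposited table (adjusted p 2.43e-13 and 0.000177). MLT1I, at 0.27 ± 0.10, was the smallest positive MLT1 LTR value to pass per the authors' deposited table (adjusted p 0.0233).

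The 6 negative LTR rows in macrophages spanned a narrower range. MLT1G3 lay at -0.45 ± 0.11 and MLT1J2 at -0.42 ± 0.14 per the authors' deposited table (adjusted p 0.000208 and 0.0164). MLT1E2 and MLT1N2 lay at -0.39 ± 0.10 and -0.38 ± 0.12 per the authors' deposited table (adjusted p 0.00141 and 0.00965). MLT1D and MLT1C2, with base means of 2546 and 1434, lay at -0.25 ± 0.06 and -0.22 ± 0.07 per the authors' deposited table (adjusted p 0.000446 and 0.00614). Members of one lettered group stood on both sides: of the 5 LTR rows of the E group, MLT1E was positive, MLT1E2 negative, and MLT1E1, MLT1E1A and MLT1E3, at 0.20 ± 0.16, -0.0022 ± 0.12 and -0.18 ± 0.11, did not pass per the authors' deposited table.

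The called internal rows of macrophages came from subfamilies whose LTR rows did not pass. MLT1A0-int lay at 0.96 ± 0.22 per the authors' deposited table (1.95-fold, base mean 62.1, adjusted p 8.56e-05), against 0.11 ± 0.05 for its LTR row (adjusted p 0.141). MLT1B-int lay at 0.60 ± 0.17 per the authors' deposited table (1.52-fold, base mean 63.0, adjusted p 0.00334), against 0.17 ± 0.07 for its LTR row (adjusted p 0.0750). In both subfamilies the internal and the LTR row lay on the positive side, the internal row farther out. MLT1E1-int lay at 1.16 ± 0.36 per the authors' deposited table (adjusted p 0.00701), on a base mean of 2.26, or 13.5 normalised reads over the 6 libraries. The LTR row of that subfamily, MLT1E1, lay at 0.20 ± 0.16 per the authors' deposited table.

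Of the deepest internal rows in macrophages, MLT1F-int, MLT1F2-int and MLT1J-int (base means 158, 128 and 71.0), none passed, with 0.05 ± 0.13, 0.21 ± 0.18 and -0.10 ± 0.21 per the authors' deposited table. For MLT1F2 the internal row at 0.21 compares with 0.64 for its called LTR row. The third-deepest LTR row, MLT1A0, had an unadjusted p of 0.0488 and did not pass after adjustment.

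In NPCs few MLT1 rows passed, at a share near that of all repeat rows, and most lay on the negative side. Negative rows also outnumbered positive rows among all called repeat rows. Of 49 tested rows 5 passed (10.2%), 1 positive and 4 negative, against 11.8% of all 1249 tested repeat rows, with 4.96% positive and 6.81% negative. Of the 19 internal rows 2 passed (10.5%), both negative, and of the 30 LTR rows 3 passed (10.0%), 1 positive and 2 negative, against 15.3% of all repeat rows at or above a base mean of 50. Over all LTR elements, MLT1 included, 19.0% of tested internal rows and 13.4% of tested LTR rows passed. The median log2 fold change was -0.06 for internal and -0.03 for LTR rows, against 0.0009 for all tested rows. SE were wider here, with a median of 0.39 for internal and 0.18 for LTR rows, so a change such as that of MLT1C2 in macrophages (-0.22) was not detectable at this precision.

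MLT1J1-int had the largest absolute value of all MLT1 rows in the 3 tables, at -1.69 ± 0.29 per the authors' deposited table for NPCs (3.24-fold, adjusted p 2.65e-07). Its base mean was 57.8, or 347 normalised reads over the 6 libraries. Its LTR row, MLT1J1, lay at 0.19 ± 0.21 per the authors' deposited table, opposite in sign and not past the test. The only other called internal row in NPCs was MLT1-int, the row with no letter, at -0.80 ± 0.28 and a base mean of 136 per the authors' deposited table (1.74-fold, adjusted p 0.0403). Among LTR rows, MLT1I was the positive one, at 0.94 ± 0.18 per the authors' deposited table (1.92-fold, base mean 302, adjusted p 1.14e-05), against -0.32 ± 0.42 for its internal row, which held a base mean of only 3.62. The negative LTR rows were MLT1E2, at -0.74 ± 0.25 per the authors' deposited table (adjusted p 0.0337), and MLT1J2, at -0.61 ± 0.17 (adjusted p 0.00569).

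The rows with the most reads in NPCs again did not pass. MLT1A0, MLT1B and MLT1D, at base means of 2255, 2175 and 1796, lay at -0.11 ± 0.11, -0.19 ± 0.14 and -0.23 ± 0.12 per the authors' deposited table. The internal rows MLT1F2-int, MLT1B-int and MLT1F-int, at base means of 450, 161 and 156, lay at -0.03 ± 0.30, -0.53 ± 0.27 and -0.06 ± 0.26 there. MLT1F2-int had an SE above that of rows with fewer reads, such as MLT1J1-int.

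**Figure D2:**
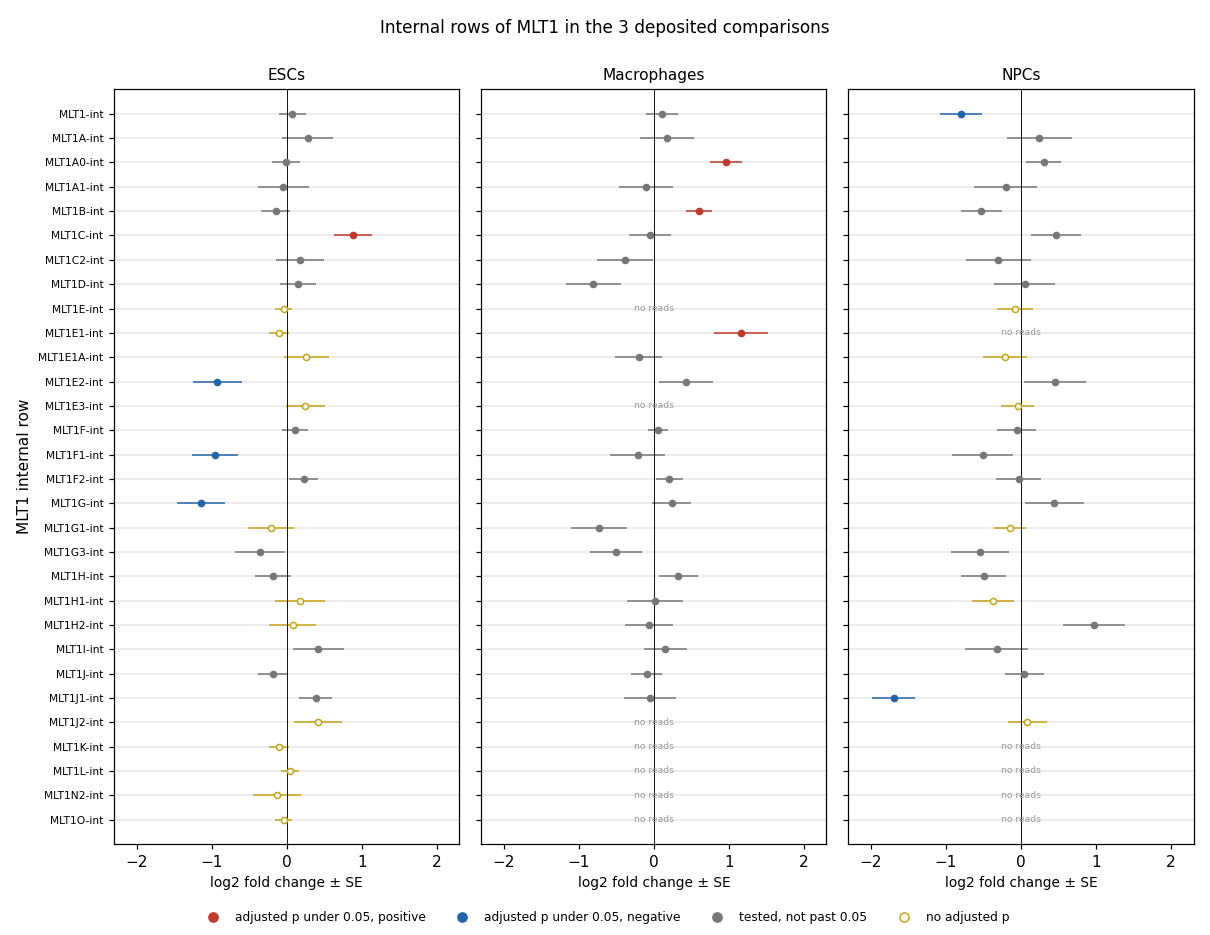
Log2 fold change (horizontal axis) with its SE for the 30 MLT1 internal rows (vertical axis) in ESCs, macrophages and NPCs. Red and blue points passed an adjusted p of 0.05 on the positive and negative side, grey points did not, and open points have no adjusted p. In ESCs, macrophages and NPCs 4, 3 and 2 rows passed, and 0 of them passed in a second cell type. Only 18 of the 30 rows were tested in all 3. Of the 1121 repeat rows tested in all 3, 10.4% were called in 2 cell types and 2.94% in 3.

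**Figure D3:**
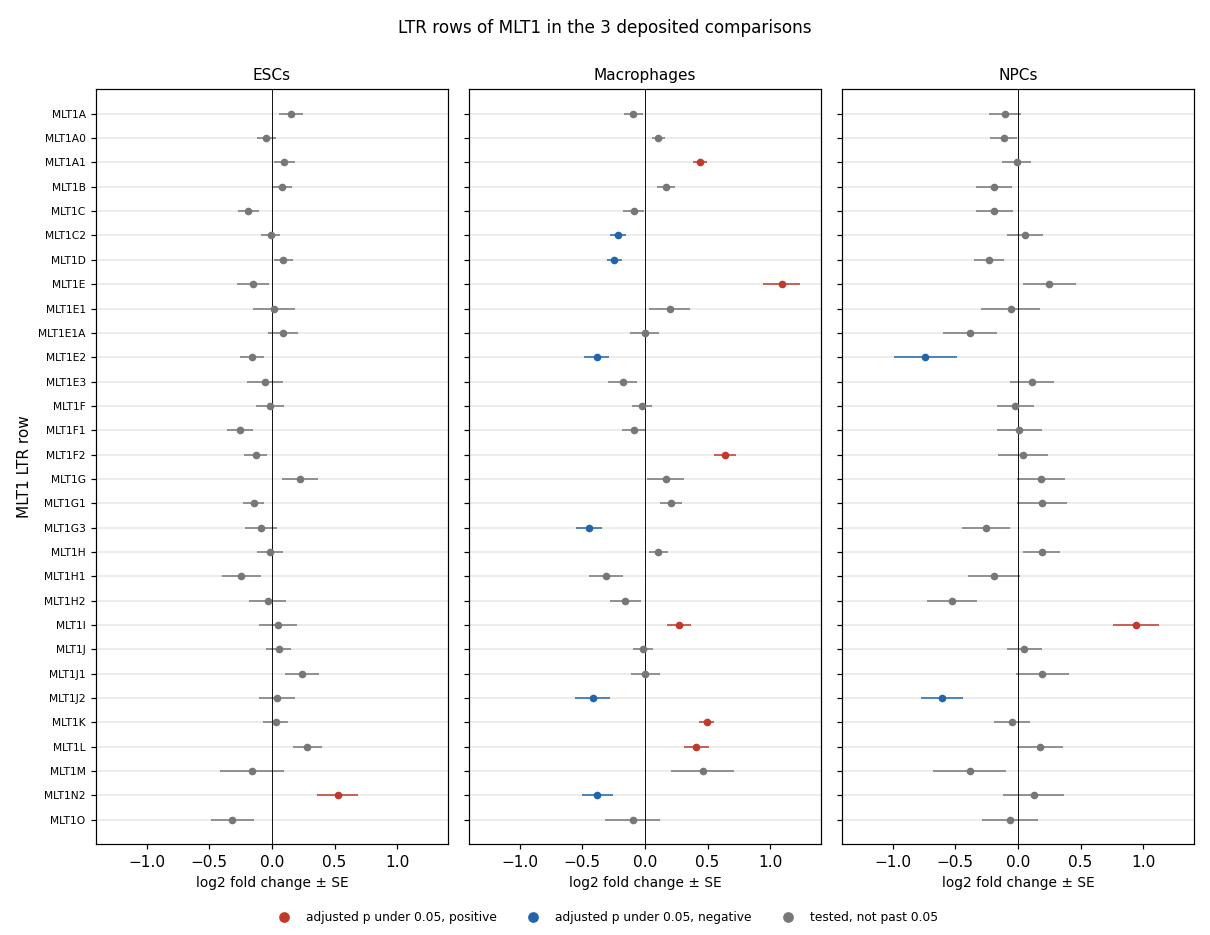
Log2 fold change (horizontal axis) with its SE for the 30 MLT1 LTR rows (vertical axis) in ESCs, macrophages and NPCs, with the same colours for rows past an adjusted p of 0.05. In ESCs 1 row passed (3.33%), in macrophages 12 (40.0%) and in NPCs 3 (10.0%). Among all repeat rows at or above a base mean of 50, 26.0%, 36.3% and 15.3% passed, in the same order.

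Both rows were tested for 17 subfamilies in ESCs, 22 in macrophages and 18 in NPCs. Of these pairs, 4, 10 and 3 had 1 row that passed, and 0 had both. Over the other LTR elements whose internal and LTR rows share a name, both passed in 6 of 41 pairs in ESCs (14.6%), 8 of 42 in macrophages (19.0%) and 3 of 41 in NPCs (7.32%). With MLT1 included, these were 6 of 58 pairs (10.3%), 8 of 64 (12.5%) and 3 of 59 (5.08%). With few MLT1 rows called on either side, a count of 0 is not read as particular to MLT1. MLT1E2-int passed in ESCs, and its LTR row MLT1E2 passed in macrophages and NPCs. The difference of the log2 fold changes, internal minus LTR, had a median absolute value of 0.23 in ESCs, 0.21 in macrophages and 0.35 in NPCs. It spanned -1.36 for MLT1G to 1.07 for MLT1C in ESCs, and -1.89 for MLT1J1 to 1.50 for MLT1H2 in NPCs. These differences were not tested, because both rows come from the same libraries and the tables do not give the covariance of their errors. For MLT1E2 the internal and LTR rows lay on the same side in ESCs, at -0.93 and -0.16, and on opposite sides in macrophages, at 0.43 and -0.39, and in NPCs, at 0.46 and -0.74.

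Of the 60 rows, 21 were called in at least 1 cell type, of which 9 were internal and 12 LTR. The 9 internal rows were each called in 1 table, while 4 LTR rows were called in 2 tables and 0 rows in all 3. MLT1E2, MLT1I and MLT1J2 were called in both macrophages and NPCs, each on the same side of both tables. MLT1N2 was called in ESCs on the positive side (0.53) and in macrophages on the negative side (-0.38). Of the 48 rows tested in all 3 tables, 28 were called in none (58.3%), 10 internal and 18 LTR, 16 in 1 table (33.3%), 4 in 2 (8.33%) and 0 in 3. Over the 1121 repeat rows tested in all 3 tables these shares were 53.2%, 33.5%, 10.4% and 2.94%, so the MLT1 rows lay near the background. These 18 LTR rows hold MLT1A0 and MLT1B, which were deeply counted in every table.

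Whether a row differed between cell types was tested by dividing the gap between its log2 fold changes by the root of their summed squared SEs (normal test, two-sided, p adjusted by Benjamini-Hochberg over all repeat rows tested in both tables). No library is shared between tables, and the log2 fold changes printed beside each difference are those of the authors' deposited tables. The test takes the tables as oriented alike, so each difference was also computed with the second table's sign turned; rows that passed both ways are marked in the plot of differing rows. Dose, and for macrophages strain, differ with cell type and cannot be told apart from it.

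Between ESCs and macrophages 11 of 48 MLT1 rows differed (22.9%), 4 of 18 internal and 7 of 30 LTR, against 23.7% of 1124 repeat rows. The difference, ESCs minus macrophages, was positive in 2 and negative in 9, against 11.8% of all rows on either of these sides. With the macrophage sign turned, 9 MLT1 rows differed, 6 positive and 3 negative, against 27.9% of all rows, so the lean to the negative side holds only if both tables are oriented alike. It was largest relative to its error for MLT1E, which lay at -0.15 ± 0.13 in ESCs and 1.09 ± 0.15 in macrophages (difference -1.24, 95% interval -1.62 to -0.86, adjusted p 5.59e-09). MLT1F2 lay at -0.13 ± 0.09 in ESCs and 0.64 ± 0.09 in macrophages (difference -0.77, 95% interval -1.02 to -0.52, adjusted p 2.37e-08). The positive differences were those of MLT1N2, at 0.53 in ESCs and -0.38 in macrophages (difference 0.91, 95% interval 0.51 to 1.30, adjusted p 0.000112), and MLT1D, at 0.09 in ESCs and -0.25 in macrophages (adjusted p 0.00427). MLT1G1 passed this test though it was called in neither table, at -0.15 ± 0.08 in ESCs and 0.20 ± 0.09 in macrophages (adjusted p 0.0211). The rows MLT1A0-int, MLT1A1, MLT1E, MLT1F2 and MLT1K, 5 of the 11, also differed with the macrophage sign turned.

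Between ESCs and NPCs 4 of 48 MLT1 rows differed (8.33%), 2 of 18 internal and 2 of 30 LTR, against 12.6% of 1126 repeat rows. The difference was positive in 2 and negative in 2, against 6.48% and 6.13% of all rows. With the NPC sign turned, 5 MLT1 rows differed, 2 positive and 3 negative, against 16.2% of all rows. MLT1J1-int lay at 0.39 ± 0.22 in ESCs and -1.69 ± 0.29 in NPCs, a difference of 2.08 (95% interval 1.37 to 2.79, adjusted p 3.81e-07). Its base means were of like size, 59.5 in the ESC table and 57.8 in the NPC table. MLT1I lay at 0.05 ± 0.15 in ESCs and 0.94 ± 0.18 in NPCs (difference -0.89, 95% interval -1.35 to -0.42, adjusted p 0.00282). Both of these differed under either orientation of the tables. MLT1G-int, at -1.14 in ESCs and 0.45 ± 0.40 in NPCs on a base mean of 1.92 there, and MLT1J2, at 0.04 in ESCs and -0.61 in NPCs, had adjusted p of 0.0201 and 0.0309 and did not pass with the NPC sign turned.

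Between macrophages and NPCs 7 of 49 MLT1 rows differed (14.3%), 2 of 19 internal and 5 of 30 LTR, against 12.4% of 1222 repeat rows. The difference, macrophages minus NPCs, was positive in 6 and negative in 1, against 6.22% and 6.14% of all rows. With the NPC sign turned, 13 MLT1 rows differed, 7 positive and 6 negative, against 19.9% of all rows. MLT1A1 lay at 0.44 ± 0.06 in macrophages and -0.01 ± 0.11 in NPCs (difference 0.45, 95% interval 0.20 to 0.69, adjusted p 0.00598). MLT1K lay at 0.49 ± 0.06 in macrophages and -0.05 ± 0.14 in NPCs (difference 0.54, 95% interval 0.24 to 0.84, adjusted p 0.00723). MLT1E and MLT1F2 also had the higher log2 fold change in macrophages, with differences of 0.84 and 0.60 (adjusted p 0.0137 and 0.0447). MLT1I was the row with the lower log2 fold change in macrophages, at 0.27 there and 0.94 in NPCs (difference -0.67, adjusted p 0.0143). MLT1J1-int lay at -0.05 ± 0.34 in macrophages, on a base mean of 1.61, and -1.69 in NPCs (adjusted p 0.00443). MLT1B-int, at 0.60 in macrophages and -0.53 in NPCs, did not pass with the NPC sign turned, and the other 6 did.

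In all, 5 rows differed in macrophages from both other cell types, which were MLT1A1, MLT1B-int, MLT1E, MLT1F2 and MLT1K, and 4 of these, the LTR rows, did so under either orientation. In NPCs 2 rows, MLT1I and MLT1J1-int, differed from both others under either orientation, and in ESCs 1 row, MLT1G-int, differed from both, with the tables oriented alike. MLT1G-int had a base mean of 0.740 in macrophages and 1.92 in NPCs, and MLT1J1-int had a base mean of 1.61 in macrophages. The test takes the deposited log2 fold change and SE as given, so these comparisons on few reads do not firmly show a difference. MLT1E2 and MLT1J2, called on the negative side in both macrophages and NPCs, did not pass the test of the difference between these, macrophages minus NPCs, with 95% intervals of -0.18 to 0.89 and -0.25 to 0.62. With the NPC sign turned both passed that test, at -1.13 and -1.02 (adjusted p 0.000464 and 7.57e-05). Their likeness in these cell types thus holds only if both tables are oriented alike. Across rows, the log2 fold changes of the MLT1 rows had a Pearson r of -0.09 between ESCs and macrophages (48 rows), -0.04 between ESCs and NPCs (48 rows) and 0.26 between macrophages and NPCs (49 rows). Over all repeat rows r was 0.20, 0.13 and 0.35, in the same order. Rows of a table share its libraries and are not replicates, and each r would change sign if 1 of the tables were oriented the other way.

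**Figure D4:**
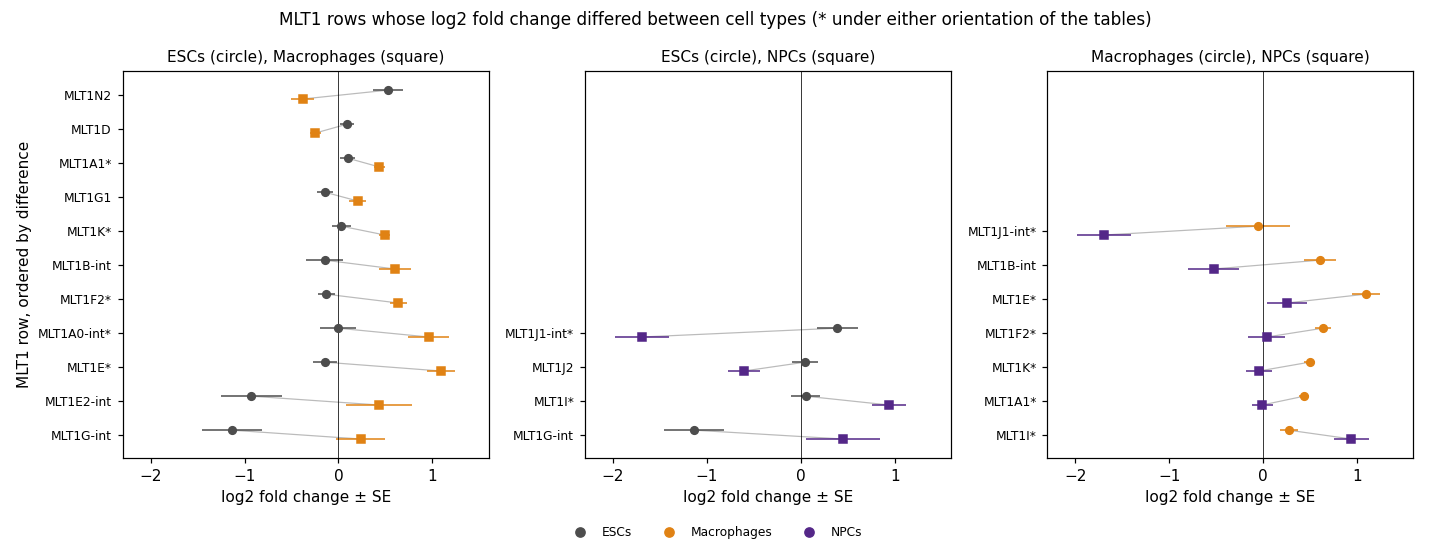
Log2 fold change with its SE (horizontal axis) in both cell types of each pair, for the 11, 4 and 7 MLT1 rows (vertical axis) whose difference passed an adjusted p of 0.05. The circle is the first cell type of the pair and the square the second; an asterisk marks rows that also differed with the second table's sign turned, as MLT1E and MLT1J1-int did.

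The rodent MaLR rows, ORR1 and MT, were counted more deeply and were called as follows. In ESCs 5 of 48 MLT1 rows passed, against 9 of 49 ORR1 and MT rows, of which 2 were positive and 7 negative. In macrophages 15 of 53 MLT1 rows passed, against 17 of 49 ORR1 and MT rows, and in NPCs 5 of 49, against 3 of 49. By kind of row, 4 of 18 MLT1 internal rows and 1 of 30 MLT1 LTR rows passed in ESCs, against 7 of 26 ORR1 and MT internal rows and 2 of 23 LTR rows. The internal rows had the larger share in both lists, as they had over all LTR elements (40.0% against 27.6% of LTR rows). In macrophages 3 of 23 MLT1 internal rows and 12 of 30 MLT1 LTR rows passed, against 12 of 26 ORR1 and MT internal rows and 5 of 23 LTR rows, and in NPCs 2 of 19 and 3 of 30 passed, against 2 of 26 and 1 of 23. Over all LTR elements, the internal and LTR shares were 41.6% and 30.5% in macrophages, and 19.0% and 13.4% in NPCs. The median SE of the tested rows in macrophages was 0.15 for MLT1 and 0.07 for ORR1 and MT. The shares of these lists were not tested against each other.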

How the data were processed

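The submitters' processing notes name Trim Galore, TopHat2 (version 2.0.13), DESeq2, featureCounts, Bowtie2 and deepTools with build mm10, without roles; the kit was stranded and poly(A)-based with paired-end reads, per the labels' protocols. How reads matching several copies were counted and the depth per library are not given in the sources used here. Per the file headers, the columns are those of DESeq2. The authors computed the base mean, a signal, and the log2 fold change with its SE. The authors also deposited a score, the Wald statistic, with each p-value and adjusted p-value. The statistic equalled log2 fold change over SE, and the adjusted p a Benjamini-Hochberg adjustment, in all tested rows within a relative 1e-06.

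Rows were selected by class and name with Python 3.11.15, pandas 2.3.3 and scipy 1.17.1. The difference test was tested on simulated data, drawn from a normal distribution with the deposited SE and tables oriented alike. That simulation therefore cannot show how the test does on rows with few reads or on tables of unlike orientation. Members, lists and tests were chosen with earlier results of these data known. Rows named are those called in a table or in a difference, the 3 deepest of each kind per table, and partners of called rows; rows named for another reason were chosen after their values were seen. Alternatives were a base mean of at least 50 or 10, no filter, an adjusted p under 0.01, centring and turned signs. The base mean of at least 10 was chosen after seeing the data.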

Additional observations from a re-analysis of the deposited data

Results flagged for a closer look

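MLT1 rows are given here whose log2 fold changes in the authors' deposited tables differed between 2 cell types by the test of the difference itself, at an adjusted p under 0.05. Between ESCs and macrophages, the difference, ESCs minus macrophages, was -1.38 for MLT1G-int, -1.36 for MLT1E2-int, -1.24 for MLT1E, -0.97 for MLT1A0-int, -0.77 for MLT1F2, -0.75 for MLT1B-int, -0.46 for MLT1K, -0.35 for MLT1G1, -0.34 for MLT1A1, 0.34 for MLT1D and 0.91 for MLT1N2. Between ESCs and NPCs, ESCs minus NPCs, it was -1.58 for MLT1G-int, -0.89 for MLT1I, 0.65 for MLT1J2 and 2.08 for MLT1J1-int. Between macrophages and NPCs, macrophages minus NPCs, it was -0.67 for MLT1I, 0.45 for MLT1A1, 0.54 for MLT1K, 0.60 for MLT1F2, 0.84 for MLT1E, 1.13 for MLT1B-int and 1.64 for MLT1J1-int. These differences take the tables as oriented alike, which is not stated. With the second table's sign turned, 5 of the 11, 2 of the 4 and 6 of the 7 rows also passed, in the same order. The base means behind MLT1G-int were 17.0 for ESCs, 0.740 for macrophages and 1.92 for NPCs. Those behind MLT1E2-int were 13.9 for ESCs and 2.95 for macrophages, and that behind MLT1J1-int was 1.61 for macrophages. Whether depth, dose or strain has a part in these differences was not tested.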

How the results depend on the processing

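No paired analysis was possible because the tables hold no values per library, and leaving out replicates was not run for the same reason. Of the counts and medians recomputed under the alternatives, 48 stayed within 1.5 times or within the median SE, and 6 counts moved. The median SE is that of single rows and not the spread of a median. A median could therefore change sign and still be counted as staying. The count of called MLT1 rows in ESCs was 1 instead of 5 with a base mean of at least 50, which leaves out all 4 called internal rows. With an adjusted p under 0.01 it was 3 in ESCs and 3 in NPCs, and the rows that differed numbered 2 between ESCs and NPCs and 4 between macrophages and NPCs. With the NPC sign turned, 13 rows differed between macrophages and NPCs in place of 7; 9 differed between ESCs and macrophages in place of 11 with the macrophage sign turned. In the 189 recomputed values of named rows, centred or at a base mean of at least 50, no row crossed the threshold and no called row changed sign. This is a weak check. Centring subtracted medians of only 0.0019 in ESCs, -0.013 in macrophages and 0.0009 in NPCs. Rows under a base mean of 50, among them all 4 called internal rows of ESCs, have no value at that depth. The median of LTR rows in macrophages, -0.0083, was 0.0046 after centring and 0.08 as a weighted mean, and the median of internal rows in ESCs, 0.03, was -0.0016 as a weighted mean, so neither has a settled sign. Depth limits the internal rows: MLT1E1-int in macrophages rests on 13.5 normalised reads, and it was not among the 14 rows called there with a base mean of at least 10.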
